A study of Homo sapiens with 4 samples.

Results

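The immediate early AP-1 and EGR genes examined here were 10 protein-coding genes chosen by name: FOS, FOSB, FOSL1, FOSL2, JUN, JUNB, JUND, ATF3, EGR1 and IER2. They are 10 of the 20033 protein-coding genes of the GENCODE annotation that lie on the autosomes and sex chromosomes. IER2 belongs to neither the AP-1 nor the EGR family and entered the list as an immediate early gene. The rule that lists them uses no Pol II value, although earlier results of these data were known when they were listed. RNA polymerase II (Pol II) ChIP-seq, which recovers the DNA fragments that Pol II is cross-linked to, was done in SK-OV-3, a human ovarian cancer cell line. The cells stably carried a short hairpin against RRN3, a Pol I initiation factor needed for ribosomal RNA synthesis (shRRN3), or the control hairpin shLacZ. The study asked how loss of RRN3 affects Pol II transcription and its termination. Each hairpin had 1 Pol II library, precipitated with the same antibody, so every comparison below describes those libraries and has no replicate error and no test. Which RRN3 hairpin was used for ChIP-seq is not given in the sources used here, and no input library was analysed here.

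AP-1 is a dimeric transcription factor made of a Jun protein with a Fos protein, another Jun protein or an ATF protein. Its site was searched here as TGANTCA, a loose pattern that takes any base in the middle. Most of its genes are immediate early genes: serum, growth factors or stress switch them on through factors that are already in the cell, such as SRF with its ETS partners at CArG boxes, CREB and ATF proteins at cyclic AMP response elements, and AP-1 itself. These genes are short, their transcripts are unstable, and in several of them Pol II waits just past the start until it is released into elongation.

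The deposited data are lists of regions with more Pol II signal than background, called peaks, and each peak has a score from the caller whose scale is not stated. There were 4014 peaks for shLacZ, with a median width of 304 bp, and 14363 for shRRN3, with a median width of 432 bp. Sequencing depth is not in the lists. Depth, the efficiency of the precipitation and the hairpin therefore cannot be told apart, nor can more cells with Pol II at a gene from more Pol II in each cell. Scores were used to rank peaks within a list, as the percentile of peaks in that list with a lower score. Of 6 epithelial marker genes, KRT8, KRT18 and EPCAM had a peak in the start window in shRRN3. The KRT8 start window and KRT18 each held 613 covered bp with a score of 121, so they appear to share 1 peak. KRT7 had a peak only in its body and KRT19 and CDH1 had none, while in shLacZ none of the 6 had a peak. VIM, a mesenchymal gene, had start peaks in both lists, and ERBB2, which is amplified in this line, had no peak in either. Of 5 haematopoietic and endothelial markers only PECAM1 had a peak, 1 in its body in shRRN3.

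Sequences are shown first: promoters, and stretches inside peaks before the start or within the gene, with FOSB for contrast. The bases were taken from RefSeq promoters (GRCh38.p14) where 9 of the 10 genes matched, FOSL1 being the other, and otherwise from the hg38 genome. All lines read 5′ to 3′ in the direction of the gene. Capitals mark CArG boxes, cyclic AMP response elements (TGACGTCA), their variant TGACATCA, AP-1 sites (TGANTCA) and TATA boxes (TATAAA), searched on both strands. For FOS, the archetype of a serum-induced gene, the upstream stretch holds the CArG box of the serum response element and the next stretch ends at the start.
FOS upstream, chr14:75278478-75278577, plus strand: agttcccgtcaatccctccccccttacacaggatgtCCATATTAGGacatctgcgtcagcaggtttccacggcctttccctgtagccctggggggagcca
FOS promoter, chr14:75278578-75278827, plus strand: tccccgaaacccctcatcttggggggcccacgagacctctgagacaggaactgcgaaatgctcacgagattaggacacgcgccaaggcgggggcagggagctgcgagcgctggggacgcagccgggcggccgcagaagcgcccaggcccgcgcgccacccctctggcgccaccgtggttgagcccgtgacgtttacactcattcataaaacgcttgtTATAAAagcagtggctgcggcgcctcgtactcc
FOSB promoter, chr19:45467746-45467995, plus strand, shown as the gene without a peak: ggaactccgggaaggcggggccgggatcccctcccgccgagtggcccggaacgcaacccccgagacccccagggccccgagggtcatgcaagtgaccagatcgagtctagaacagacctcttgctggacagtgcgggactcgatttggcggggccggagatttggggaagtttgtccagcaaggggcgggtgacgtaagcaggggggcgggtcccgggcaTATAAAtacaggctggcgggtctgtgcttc
JUN promoter, chr1:58784048-58784297, minus strand: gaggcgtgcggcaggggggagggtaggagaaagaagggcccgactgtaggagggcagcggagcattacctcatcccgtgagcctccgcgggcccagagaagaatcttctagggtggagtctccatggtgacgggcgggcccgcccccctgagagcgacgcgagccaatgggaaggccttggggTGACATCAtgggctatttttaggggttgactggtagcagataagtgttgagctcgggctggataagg
JUNB promoter, chr19:12791236-12791485, plus strand: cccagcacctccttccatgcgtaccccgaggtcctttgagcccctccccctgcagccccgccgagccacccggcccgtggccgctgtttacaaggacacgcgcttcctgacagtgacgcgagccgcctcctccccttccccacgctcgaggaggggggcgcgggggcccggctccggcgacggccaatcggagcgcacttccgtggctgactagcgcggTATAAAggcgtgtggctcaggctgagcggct
JUNB upstream, chr19:12789923-12789982, plus strand, inside a shRRN3 peak: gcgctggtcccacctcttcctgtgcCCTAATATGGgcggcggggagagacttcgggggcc
JUND promoter, chr19:18281623-18281872, minus strand: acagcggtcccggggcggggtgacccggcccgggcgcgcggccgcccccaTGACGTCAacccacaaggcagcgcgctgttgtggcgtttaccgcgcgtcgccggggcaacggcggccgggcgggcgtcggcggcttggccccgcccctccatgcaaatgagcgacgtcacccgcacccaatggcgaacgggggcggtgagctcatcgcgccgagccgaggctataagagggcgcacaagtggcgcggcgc
ATF3 before its MANE Select start, chr1:212608511-212608760, plus strand: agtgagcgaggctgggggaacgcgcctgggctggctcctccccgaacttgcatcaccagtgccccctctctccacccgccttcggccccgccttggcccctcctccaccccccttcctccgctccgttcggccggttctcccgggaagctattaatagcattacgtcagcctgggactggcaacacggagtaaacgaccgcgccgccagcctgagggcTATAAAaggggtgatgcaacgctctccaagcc
EGR1 whole shRRN3 peak, chr5:138464999-138465246, plus strand: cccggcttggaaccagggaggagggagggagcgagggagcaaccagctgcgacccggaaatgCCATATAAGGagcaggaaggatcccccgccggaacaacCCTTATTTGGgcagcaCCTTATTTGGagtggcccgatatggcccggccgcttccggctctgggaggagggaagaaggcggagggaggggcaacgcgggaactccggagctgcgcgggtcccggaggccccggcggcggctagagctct
EGR1 promoter, chr5:138465229-138465478, plus strand: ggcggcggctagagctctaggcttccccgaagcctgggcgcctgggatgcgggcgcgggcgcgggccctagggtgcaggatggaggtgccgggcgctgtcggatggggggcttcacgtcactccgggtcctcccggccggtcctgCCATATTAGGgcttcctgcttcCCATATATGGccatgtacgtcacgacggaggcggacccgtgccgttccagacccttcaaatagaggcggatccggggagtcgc
IER2 intron, chr19:13151829-13151888, plus strand, inside a shRRN3 peak: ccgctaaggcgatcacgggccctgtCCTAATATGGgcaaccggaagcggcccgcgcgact
IER2 exon 2, chr19:13153004-13153033, plus strand, inside the strongest peak of both lists: tcagTGACGTCActgggggTATAAAagggc

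Counting bases from the start of the MANE Select transcript, the reference transcript of each gene, the TATA box began 33 bases before the start in FOS, 30 in FOSB, 31 in JUNB and 32 in ATF3. Of the 10 promoters in the table, from 250 bases before to 50 after the start, 4 held TATAAA, against 9.47% of 22182 protein-coding promoters. One of these 4 was not the ATF3 box named above: it lay 230 bases before another ATF3 start, where no peak lay. The CArG box was in 1 of the 10, that of EGR1, against 1.25% of all promoters, and TGACGTCA was in 1, that of JUND, against 2.26%. TGANTCA was in 1, that of FOSL2, against 6.15%, and TGACATCA in 2, those of JUN and, at its far start and not in the stretch shown, ATF3, against 2.13%. The EGR site GCGNGGGCG was in 1, that of EGR1, against 12.1%, and the GC box GGGCGG, whose letters can overlap those of the EGR site, in 7 against 56.3%. A match is a match of letters and says nothing of whether a factor was bound.

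Pol II peaks were found in or within 5 kb of 4 of the 10 genes in shLacZ (FOSL2, JUN, JUNB and IER2) and of 9 in shRRN3, where FOSB alone had none. Among all protein-coding genes, 14.5% had such a peak in shLacZ and 39.0% in shRRN3. The 10 genes held 6 peaks in shLacZ and 27 in shRRN3, 4.5 times as many, while the whole lists differed 3.58 times. Both the higher number and the higher share at these genes thus stood beside a longer list. When shRRN3 was reduced to the 4014 peaks with the highest scores, the scores kept were 102 or more, and 6 of the 10 genes held 12 peaks: FOS, FOSL1, JUN, JUNB, JUND and IER2. In that reduced list FOSL2 no longer had a peak, although it had 2 in shLacZ.

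**Figure D1:**
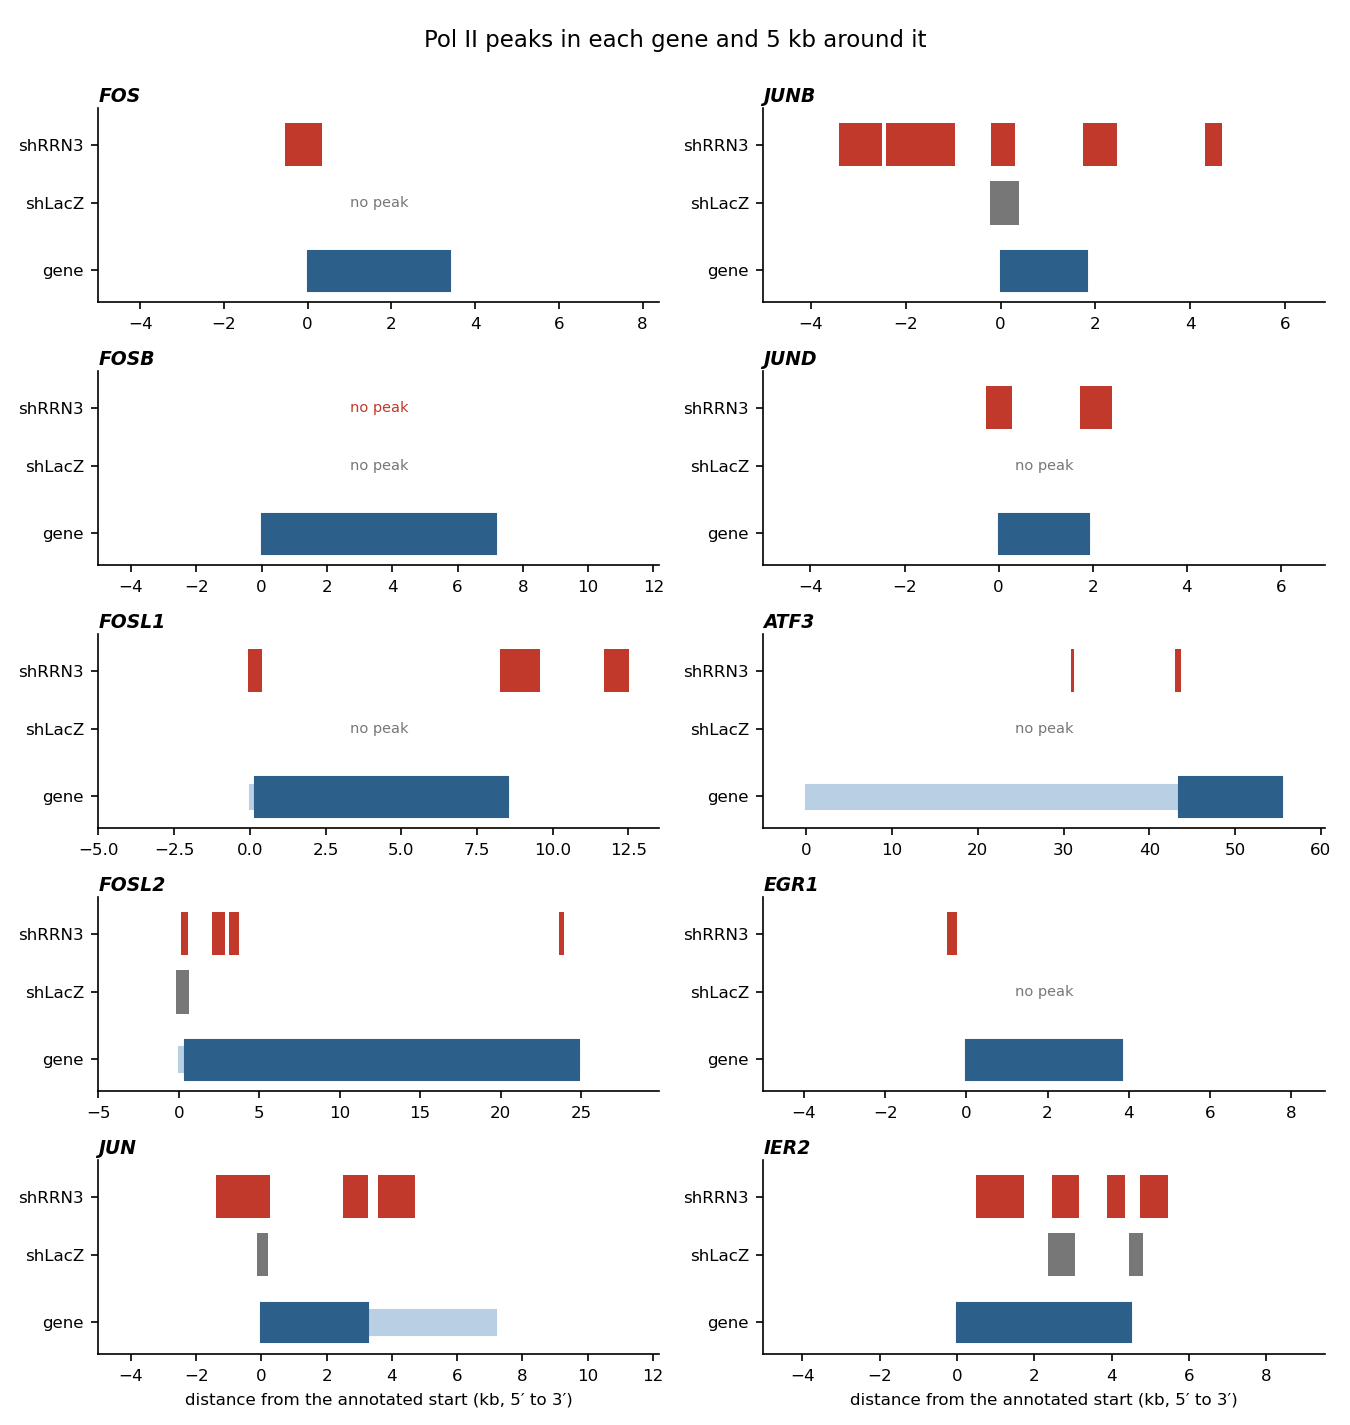
Each panel shows 1 gene from 5 kb before its annotated start to 5 kb past its annotated end, in kb along the gene, with shLacZ peaks in grey, shRRN3 peaks in red, the annotated span in light blue and the MANE Select transcript in dark blue. The 27 shRRN3 peaks lay at 9 genes and the 6 shLacZ peaks at 4, and FOSB had no peak in either list.

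FOS, the partner that Jun proteins pair with first after stimulation, had no peak in shLacZ. In shRRN3 it had 1 peak of 905 bp, chr14:75278273-75279177, which ran from 553 bases before to 351 bases after the annotated start. Its score of 203.84 was rank 864 of the list, percentile 94. The peak covered 45.2% of the start window, which is 1 kb on each side of the start. It held the CArG box 314 bases before the start as well as the TATA box, and 141 bp of it were coding sequence of the first exon. No peak lay in the rest of the gene, its body from 1 kb past the start to the annotated end, or in the 5 kb past the end.

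FOSB, a Fos family gene with a truncated isoform that accumulates under repeated stimulation, had no peak in either list. Its promoter has the same TATA box spacing as FOS within 3 bases, with TATAAA 30 bases before the start. FOSB lies inside the annotated span of ERCC1, a DNA excision repair gene on the other strand. ERCC1 starts 3649 bp past the FOSB end and had no start coverage in either list.

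FOSL1, a Fos family gene that is itself an AP-1 target, had no peak in shLacZ and 4 in shRRN3. The start peak, chr11:65900181-65900641, was 461 bp wide and scored 78.12, percentile 54.1. It held an AP-1 site, TGAGTCA, that spans the MANE Select start. At the other end of the gene a peak of 1010 bp, chr11:65891305-65892314, crossed the annotated end and ran 744 bp past it, scoring 95.82 (percentile 68.4). A peak of 276 bp (score 61.93) and another of 808 bp (score 122.83, percentile 81) lay further past the end. Other genes lie there: CCDC85B starts 1376 bp past the FOSL1 end on the opposite strand, and FIBP starts 3518 bp past it on the same strand. The 808 bp peak lay whole in the FIBP start window, and the end-crossing peak and its neighbour covered 645 bp of that of CCDC85B. Pol II on FOSL1 and Pol II on these neighbours cannot be told apart in the lists.

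FOSL2, a Fos family gene, was the longest gene after ATF3, with a span of 24870 bp. In shLacZ it had 2 peaks at the start, of 291 bp (score 51.94, percentile 10.6) and 455 bp (score 68.58, percentile 54.2). In shRRN3 it had 1 start peak of 485 bp (score 85.0, percentile 60.5), which shared 436 bp with the shLacZ peaks. Start coverage was lower in shRRN3, at 24.2% of the window, than in shLacZ, at 37.3%. An AP-1 site, TGACTCA, began 4 bases after the MANE Select start and lay in the stronger start peak of both lists. The other 3 shRRN3 peaks of FOSL2 lay in the body: 825 bp (score 93.5, percentile 67) and 617 bp (score 52.07) in an intron, and 294 bp in the last exon with a score of 50.1, at the bottom of the list. Their 1736 bp covered 7.27% of the body, where shLacZ had no peak.

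JUN, the Jun family gene that AP-1 itself activates, had the largest ratio of covered bases between the lists among the 4 genes covered in both. The shLacZ list had 1 peak of 345 bp, chr1:58783851-58784195, from 147 bases before to 197 after the start, with a score of 149.97 (rank 384, percentile 90.4). The shRRN3 start peak contained it whole and was 1636 bp wide, chr1:58783795-58785430. It scored 319.06 (rank 309, percentile 97.9), reached 1382 bases before the start and covered 62.7% of the start window against 17.2% in shLacZ. The variant TGACATCA, 67 bases before the start, lay in the start peak of both lists. Near the other end, shRRN3 had a peak of 767 bp, chr1:58780768-58781534 (score 108.54, percentile 75.1), and one of 1142 bp, chr1:58779331-58780472. That 1142 bp peak had the highest score of all peaks at the 10 genes, 431.93 (rank 168, percentile 98.8). How it is counted depends on the transcript: the MANE Select transcript ends at 58780791, so the peak lay from 319 to 1460 bp past its end, while the longest annotated JUN transcript runs 3946 bp further and places the same peak in the body. By the MANE Select end the 767 bp peak crossed the end by 23 bp and 23.3% of the next 5 kb was covered. By the longest span, 30.8% of the body and none of the bases past the end were covered. The shLacZ list had no peak in this region.

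JUNB, a Jun protein that often restrains JUN, is a gene without introns, 1830 bp long, and lies inside the annotated span of HOOK2 on the opposite strand. The start peak was found in both lists: 616 bp in shLacZ (score 160.15, percentile 91.4) and 499 bp in shRRN3 (score 268.62, percentile 96.9). All 499 bp were shared, with the TATA box inside both peaks. Start coverage was 30.8% in shLacZ and 26.8% in shRRN3, the latter with the edge of an upstream peak included. The remaining 5 peaks were in shRRN3 alone. Before the start, peaks of 918, 611 and 834 bp with scores of 94.66, 70.64 and 87.77 covered 58.1% of the stretch from 5 kb to 1 kb before the start. The peak nearest to the start held the CArG box 1538 bases before it, and the middle one held the AP-1 site TGACTCA 1970 bases before it. At the end, a 709 bp peak (score 138.89, percentile 85.1) crossed the last base and ran 620 bp past it, and a weaker one of 357 bp (score 51.87, percentile 6.5) ended 2836 bp past it. PRDX2, on the opposite strand at chr19:12796820-12801800, has its own end within the 5 kb past the JUNB end. The 357 bp peak lay between the 2 gene ends and cannot be assigned to either gene. HOOK2 had no coverage at its own start, 81254 bp from the JUNB start, in either list.

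JUND, the Jun family gene that is expressed most steadily, had no peak in shLacZ. In shRRN3 a 556 bp peak, chr19:18281345-18281900, lay evenly over the start, from 278 bases before to 277 after it, with a score of 159.88 (percentile 89.2). It held TGACGTCA 200 bases before the start and 7 GC boxes. A second peak of 681 bp, chr19:18279209-18279889 (score 103.45, percentile 72.8), crossed the annotated end and ran 485 bp past it. JUND, 1929 bp long and without introns, thus had the same 2 places covered as JUNB, the start and the end, but only in shRRN3.

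**Figure D2:**
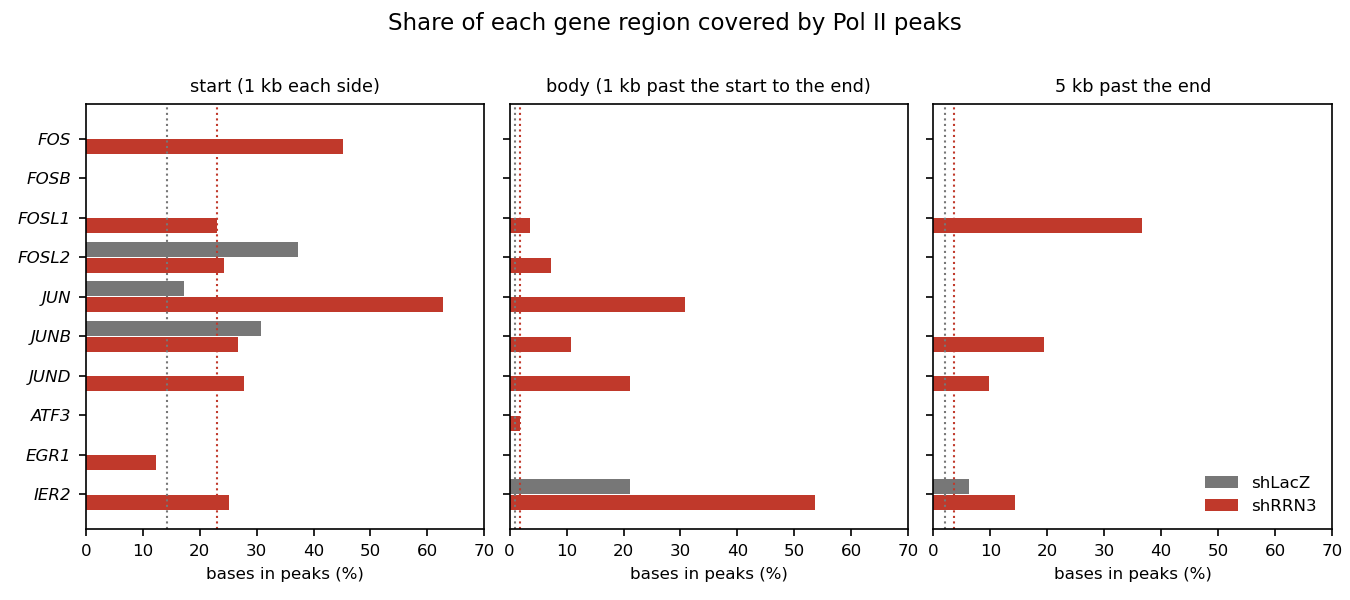
Bars give the percent of bases in peaks for each gene in the start window, the body and the 5 kb past the annotated end, in grey for shLacZ and red for shRRN3, and dotted lines give the mean over protein-coding genes with a peak in that list. In shLacZ only IER2 had coverage in the body or past the end, and in shRRN3 its body coverage of 53.7% stood above that of the other genes.

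ATF3, a stress-induced partner of Jun proteins, had no peak in shLacZ and 2 in shRRN3. Its annotated span begins 43427 bp before the MANE Select start, and no peak lay at that far start. The wider peak, 728 bp at chr1:212608306-212609033, lay over the MANE Select start and held the TATA box, with a score of 70.64 (percentile 45.6). It therefore counted as body coverage by the annotated span and as 36.4% start coverage by the MANE Select transcript. The other peak, of 238 bp with a score of 51.04 (percentile 4.13), lay 12497 bp before the MANE Select start. It held TGAATCA, a match to the loose pattern TGANTCA. GARIN4 starts 3697 bp past the ATF3 end and had no start coverage in either list.

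EGR1, a zinc finger factor that serum induces through SRF, had no peak in shLacZ. In shRRN3 it had 1 narrow peak of 248 bp, chr5:138464999-138465246, with a score of 59.92, percentile 28.4, the lowest score among the highest peaks of the 9 genes. The peak did not touch the start: it began 480 bases before it and ended short of it, and the body and the end had no peak. It held 3 CArG boxes, 418, 380 and 364 bases before the start, and the other 2 CArG boxes of the promoter, 105 and 83 bases before the start, lay outside it. Among the 14322 shRRN3 peaks on the main chromosomes, only the EGR1 peak had 3 or more CArG boxes in the 300 bases around its centre. No shLacZ peak had as many. The limit of 3 is the number in this peak and the scan was added after seeing the data, so the count describes this peak only. At least 1 CArG box was in that window in 1.76% of shLacZ and 1.89% of shRRN3 peaks.

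Over whole peaks, 4 of the 27 shRRN3 peaks at these genes held a CArG box, those of FOS, JUNB, EGR1 and IER2, and none of the 6 shLacZ peaks did. Over all peaks the shares were 3.16% in shRRN3 and 2.3% in shLacZ. Peaks at the 10 genes were wider than the lists, with medians of 407 bp in shLacZ and 708 bp in shRRN3, and a wider peak has more places for a match. The boxes of JUNB and IER2 have the same letters, CCTAATATGG, one lying before the gene and the other in an intron. The loose AP-1 pattern TGANTCA was counted in the 300 bases around the peak centre. It was there in 4 of the 27 shRRN3 peaks at these genes, against 26.9% of all shRRN3 peaks. In shLacZ it was in 1 of the 6, against 19.2%. Matches to TGANTCA were thus not more frequent at these genes than over all peaks.

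**Figure D3:**
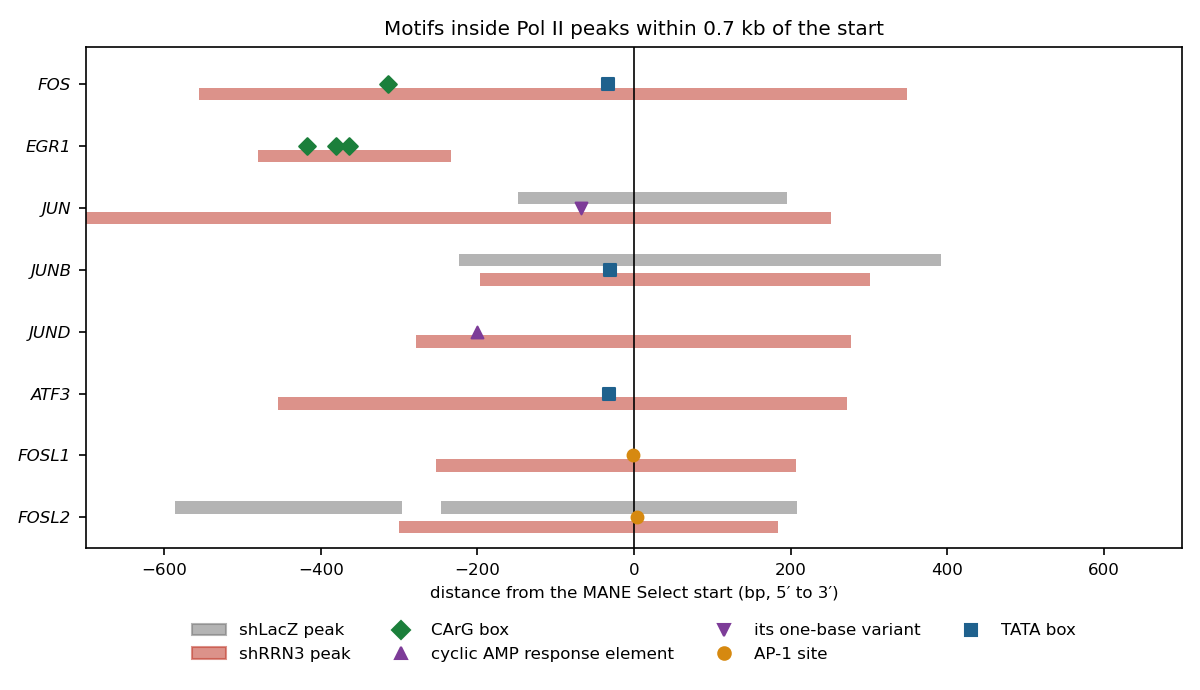
For 8 of the 9 genes with a peak within 0.7 kb of the MANE Select start (IER2, whose peak there lies in its intron, is not drawn), bars give the extent of shLacZ peaks (grey) and shRRN3 peaks (red) in bp from the start, cut at 0.7 kb, and symbols mark motif matches inside those peaks. CArG boxes lay in the FOS and EGR1 peaks before the start, and TATA boxes about 30 bp before the start lay in the FOS, JUNB and ATF3 peaks.

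IER2, an immediate early gene that encodes a nuclear regulator, was the gene with the most coverage in shLacZ. Its strongest peak in both lists was not at the annotated start but over the second exon. In shLacZ that peak was 697 bp wide, chr19:13152775-13153471, with a score of 197.95 (rank 244, percentile 93.9), and in shRRN3 it was 708 bp, chr19:13152860-13153567, with a score of 426.11 (rank 175, percentile 98.8). The peaks shared 612 bp. They held 285 bp and 381 bp of coding sequence, and just before it, in the untranslated part of exon 2, TGACGTCA began 2597 bases and TATAAA 2612 bases past the annotated start. In the 300 bases around the peak centre, TGACGTCA was in 1.35% and TATAAA in 17.7% of all shLacZ peaks.

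The other IER2 peaks differed between the lists. A 1225 bp intronic peak from 499 to 1723 bases past the start, with a score of 151.7 (percentile 87.8) and a CArG box, was in shRRN3 alone. STX10, on the opposite strand, starts 28 bp from IER2, and 474 bp of the same peak lay in its start window. A shRRN3 peak of 447 bp lay in the last exon (score 56.35, percentile 19.7). At the end of the gene, shLacZ had a 359 bp peak that crossed the last base by 315 bp with a score near the bottom of the list (50.63, percentile 3.15). In shRRN3 the corresponding peak of 722 bp began 232 bp past the end and reached 953 bp past it (score 108.43, percentile 75), sharing 84 bp with that of shLacZ. IER2 was thus the only one of the 10 genes with coverage past its annotated end in both lists.

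By region, start coverage was present at 3 of the 10 genes in shLacZ (FOSL2, JUN and JUNB), against 7.75% of all protein-coding genes. In shRRN3 it was present at 8, all but FOSB and ATF3, against 24.6%. With shRRN3 reduced to the length of the shLacZ list it was present at 5 (FOS, JUN, JUNB, JUND and IER2). Body coverage was present at 1 gene in shLacZ, IER2, against 6.29% of the 19558 genes longer than 1 kb, and at 7 in shRRN3 against 20.2%. In FOSL1, JUNB and JUND all body bases in shRRN3 (266, 89 and 196 bp) belonged to the peak across the annotated end. That peak is counted again below, past and across the end. In ATF3 most body bases belonged to the 728 bp peak over the MANE Select start. The reduced list left 4 of those 7.

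Coverage in the 5 kb past the annotated end was present at 1 gene in shLacZ, IER2, against 2.62% of all genes. In shRRN3 it was present at 4, FOSL1, JUNB, JUND and IER2, against 8.68%, and the reduced list kept all 4, FOSL1 only through the 808 bp peak at the FIBP start. These windows had 36.6%, 19.5%, 9.7% and 14.4% of their bases in peaks, respectively. With bases in or near other genes left out, coverage remained for FOSL1 (375 bp), JUND (485 bp) and IER2 (722 bp), and for JUNB no base was left to measure. A peak lay across the annotated end itself at 1 gene in shLacZ (IER2, against 0.309%) and at 3 in shRRN3 (FOSL1, JUNB and JUND, against 1.48%), or 4 by MANE Select ends, with JUN added. In the reduced list only JUNB and JUND had a peak across the annotated end.

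A gene with a start peak in shRRN3 was more often covered elsewhere, so the 8 genes were also set beside the 4922 genes with start coverage. Of the 8, 6 had body coverage against 37.4% of those genes, 4 had past-the-end coverage against 17.6%, and 3 had a peak across the end against 3.7%. In those 3 genes the peak across the end gave all of the body coverage, so these counts are not independent of each other. In shLacZ, none of the 3 start-covered genes had coverage in the body, past the end or across it, against 17.8%, 8.18% and 1.8% of 1553 start-covered genes. Among start-covered genes with a span of at most 10 kb, 7 of the 8 genes remained, and in a short gene a single peak reaches the end more easily. Of these 7, 5 had body coverage against 31.9% of 950 such genes, 4 had past-the-end coverage against 37.7%, and 3 had a peak across the end against 12.9%. The share with past-the-end coverage was 37.7% in the short genes and 17.6% in all start-covered genes.

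Covered bases in the gene and 5 kb around it were at least 2 times higher in shRRN3 at all 9 genes with any peak, which was also the case at 83.4% of the 8093 protein-coding genes covered in either list. None was at least 2 times higher in shLacZ, against 3.73%. With shRRN3 reduced to the length of the shLacZ list, 5 genes were at least 2 times higher in shRRN3 and FOSL2 was so in shLacZ. The reduced list keeps scores of 102 or more, which removes every shRRN3 peak of FOSL2, while shLacZ keeps scores from 50.03. The FOSL2 reversal thus rests on unlike limits. Among the 4 genes covered in both lists, JUN went from 345 to 3545 bp (10.3 times), JUNB from 616 to 3928 bp (6.38 times), FOSL2 from 746 to 2221 bp (2.98 times) and IER2 from 1056 to 3102 bp (2.94 times). Their median ratio was 4.68, and that of the 2617 genes covered in both lists was 2.41, with quartiles of 1.48 and 3.96. JUN and JUNB lay above the upper quartile, and FOSL2 and IER2, the genes nearest to the 2 times limit, lay between the quartiles. In the other 5 genes all coverage was in shRRN3: 2555 bp in FOSL1, 1237 bp in JUND, 966 bp in ATF3, 905 bp in FOS and 248 bp in EGR1.

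Every one of the 6 shLacZ peaks at these genes was overlapped by a shRRN3 peak (exact binomial 95% interval for counting error alone 54.1 to 100%), against 66.2% of all shLacZ peaks. In turn 5 of the 27 in shRRN3 met a shLacZ peak (18.5%, interval 6.3 to 38.1%), against 16.9% of all shRRN3 peaks. Both intervals treat peaks as independent, although several lay at the same gene of the same library. They therefore do not test a difference from the shares over all peaks. A minimum of 50% shared in each partner left 3 peaks per list. The 5 shared shRRN3 peaks had a median score percentile of 96.9 and the other 22 one of 64.9. The shared places were the starts of FOSL2, JUN and JUNB and the second exon and end of IER2.

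**Figure D4:**
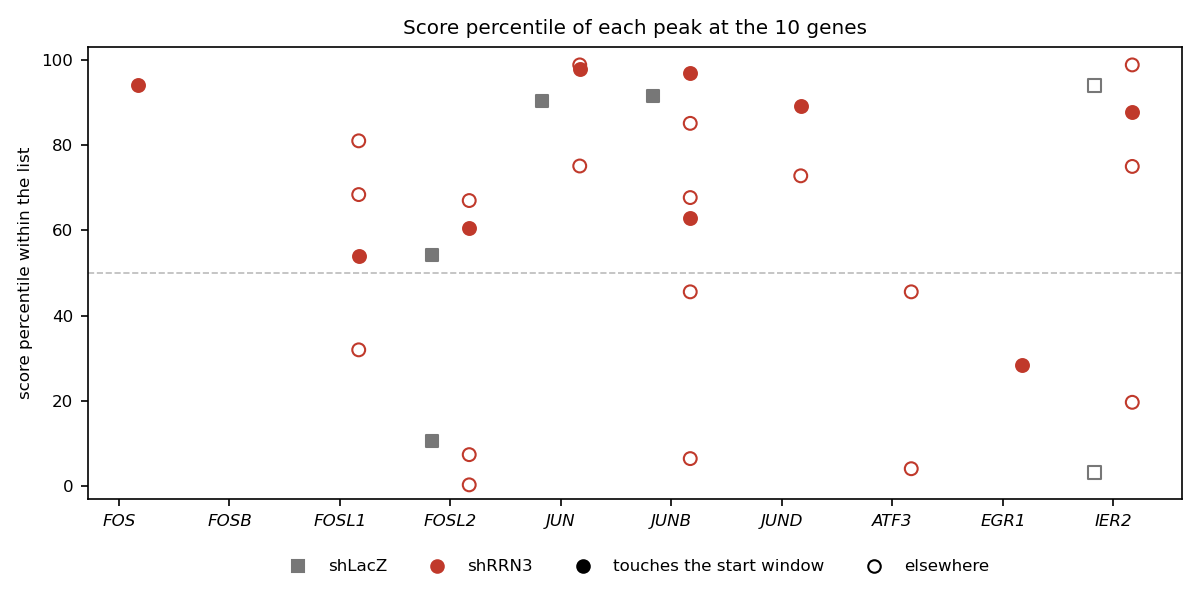
Each point is 1 peak, with its score percentile within its own list on the vertical axis, grey squares for shLacZ and red circles for shRRN3, filled where the peak touches the start window. The strongest peaks of JUN, JUNB and IER2 lay at or above percentile 90.4 in both lists, and the EGR1 and ATF3 peaks lay below 50 in shRRN3.

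The highest peak of each gene gave an order within each list. In shLacZ, IER2 ranked 147 of the 2904 genes with a peak, JUNB 217, JUN 239 and FOSL2 1509. In shRRN3, JUN ranked 134 and IER2 141 of 7806, followed by JUNB at 421, FOS at 818, JUND at 1458, FOSL1 at 2463, FOSL2 at 3918, ATF3 at 5596 and EGR1 at 6664. The rank of FOSL1 came from the 808 bp peak in the FIBP start window (score 122.83). Its own start peak scored 78.12, below the 93.5 of the highest FOSL2 peak. IER2, JUNB and JUN were thus among the upper genes of both lists, while their order changed, and with 1 library per hairpin the change in order cannot be set against any spread. The median of the highest percentiles was 90.9 over the 4 genes in shLacZ and 89.2 over the 9 in shRRN3. Over all genes with a peak it was 55.8 and 67.1.

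Other genes of the same signalling network were read from a list of 52 genes in 5 groups. Start coverage was present at 12 of the 52 (23.1%) in shLacZ and 24 (46.2%) in shRRN3, with 9 genes in both. The 17 other immediate early genes were covered most often, 7 in shLacZ and 10 in shRRN3. Scores are given with their percentile within the list and were not compared between lists. PHLDA1, a growth factor-induced gene, scored 219 at its start in shLacZ (percentile 94.8) and 286 in shRRN3 (percentile 97.3), where it was not the highest of the group. KLF6, a zinc finger factor, scored 148 in shLacZ (percentile 90.2) and 258 in shRRN3 (percentile 96.5). Of the 9 feedback regulators, 2 had start coverage in shLacZ and 5 in shRRN3. DUSP1, a phosphatase that switches off MAP kinases, scored 149 (percentile 90.4) and 215 (percentile 94.6) in the respective lists. SPRED1, an inhibitor of Ras signalling, scored 72.8 (percentile 59.2) and 105 (percentile 73.8). DUSP6, the ERK phosphatase, scored 228 (percentile 95.3) in shRRN3 and had no start coverage in shLacZ.

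Upstream factors and kinases had start coverage at 3 of 12 genes in shLacZ and 6 in shRRN3. CREB1, which binds the cyclic AMP response element, scored 89.9 in shLacZ (percentile 74) and 249 in shRRN3 (percentile 96.1). MAPK14 (the kinase p38 alpha) scored 61.8 in shLacZ, and ELK4, an ETS partner of SRF, 109.7 in shRRN3. Of the 9 AP-1 partners, none had start coverage in shLacZ and 2 had it in shRRN3, ATF2 (88.1) and ATF7 (85.4), which encode dimer partners of Jun. Of the 5 EGR family and corepressor genes, only NAB2, which encodes a corepressor of EGR1, had it, with 221 in shRRN3. Both of those groups were below the background of 24.6%, although with 9 and 5 genes a single gene moves the share widely. Covered bases were at least 2 times higher in shRRN3 at 28 of the 36 network genes with a peak and in shLacZ at 2. Among the 8093 protein-coding genes covered in either list, the shares were 83.4% and 3.73%. The genes nearest to the median of the 10 genes in the 6 coverage percentages were ELK1, SPRY2 and DUSP5, at distances of 5.48, 5.75 and 5.8 percentage points, and each had start coverage in shRRN3 alone (25.6%, 22.7% and 19.5%).

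**Figure D5:**
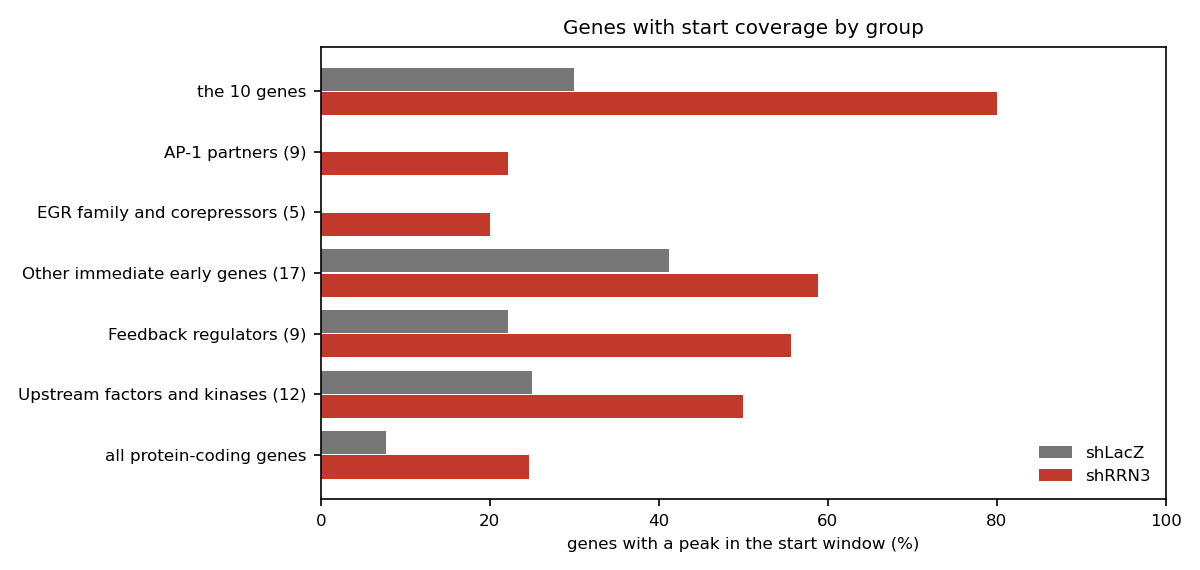
Bars give the percent of genes with a peak in the start window in shLacZ (grey) and shRRN3 (red) for the 10 genes, the 5 network groups with their numbers of genes in brackets, and all protein-coding genes. Start coverage was present at 8 of the 10 genes in shRRN3 and at 24.6% of all protein-coding genes.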

How the data were processed

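Pol II ChIP-seq peak lists of SK-OV-3 cells were read, 1 for shLacZ and 1 for shRRN3. The authors sequenced the libraries and called peaks in each library by itself. The deposited lists give a start, an end and a score per peak, the peak names carry the name MACS, and the build is hg38 per the submitters' processing notes. The aligner, caller settings, use of the inputs and read depth are not given in the sources used here. The lowest score was 50.03 in shLacZ and 50.0 in shRRN3 and the highest 3100 in both, so scores served for ranks within a list and for filters, of which the median of shLacZ, 66, was also applied to shRRN3, and a gene without a peak may still hold Pol II below the caller's limit.

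Gene spans came from GENCODE release 44, with MANE Select transcripts as an alternative. Covered bases were counted in the gene and 5 kb around it, the start window (1 kb on each side), the body and the 5 kb past the end. An overlap was 1 shared bp or more. Python 3.11.15, pandas 2.3.3, numpy 2.4.6, scipy 1.17.1 and bedtools 2.31.1 were used. On simulated peaks the windows of all 200 genes were recovered exactly. Groups came from the labels; with 1 library each, values are described beside all protein-coding genes and no test was run. The genes named were the 10 genes, in each network group the 2 with the highest start score per list, the 3 nearest in coverage and genes starting within 5 kb. For JUNB, the gene that surrounds it and the gene that ends within 5 kb past it were added. One gene that this rule names is not reported here. The genes and lists were chosen with earlier results of these data known. The TGACATCA motif, the scan of peaks for motifs, the comparison among start-covered and short genes, and the search beyond 5 kb were added after seeing the data. Alternatives changed the score filter, the list length, the windows, the gene bounds and the overlap rule.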

Additional observations from a re-analysis of the deposited data

How the results depend on the processing

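Of 22 results recomputed under 90 alternative settings, 76 values stayed within 1.5 times the reported one and 14 did not. With shRRN3 reduced to as many peaks as shLacZ, start coverage was present at 5 genes and body coverage at 4, median start and body coverage were 12.5% and 0%, and 5 genes had at least 2 times the covered bases in shRRN3 and 1, FOSL2, in shLacZ. With scores of at least 66, coverage past and across the end in shLacZ was present at 0 genes and median body coverage in shRRN3 was 3.5%. A start window of 0.5 kb gave a median start coverage of 42.6% in shRRN3, a body from 0.5 kb past the start gave 2 genes in shLacZ, and MANE Select bounds gave a median past-the-end coverage of 4.85% in shRRN3. Requiring 50% of both peaks to be shared left 3 overlapped peaks in each list. Shorter windows, fewer peaks or other bounds are part of how these settings were built. No paired analysis was possible because 1 library stood for each hairpin. Depth was not in the lists, so a missing peak sets no limit on Pol II.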

Other observations

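Beyond 5 kb and up to 100 kb, outside every protein-coding gene and the 5 kb around it, peaks were found near JUN and IER2 only, among the 10 genes. Near JUN there was 1 in shLacZ, of 212 bp at chr1:58755393-58755604, 21241 bp past the annotated end, with a score of 63.03. A shRRN3 peak of 834 bp with a score of 82.04 (percentile 57.8) overlapped it. The other 5 shRRN3 peaks near JUN lay from 32352 to 99134 bp before the start or 49081 bp past the end, and the highest score among them was 133.83 (percentile 83.9), at the farthest one. Near IER2, 3 shRRN3 peaks of 691, 737 and 716 bp lay 7874, 8704 and 12539 bp past the end, with scores of 53.66, 86.58 and 51.01, and shLacZ had none. Whether any of these regions acts on JUN or IER2 was not tested.

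The 4 genes on chromosome 19 held 12 of the 27 shRRN3 peaks, JUNB 6, IER2 4 and JUND 2, while FOSB on the same chromosome had none. Copy number in this line was not measured here. The median GC content was 66.7% over the 10 promoters in the table, which belong to 9 of these genes, and 62.3% over all promoters.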
